A study of Mus musculus with 8 samples.

Results

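DNA damage signalling and repair genes were examined in mouse CD8+ T cells, the cytotoxic lymphocytes, kept under persistent stimulation of the T cell receptor with or without DADA. The set holds 36 genes of the 22520 in the deposited expression table and was found by gene symbol, and each of the 36 symbols was in the table. The comparison asked how DADA changes transcription in such cells. DADA, diisopropylamine dichloroacetate, is an inhibitor of pyruvate dehydrogenase kinase. CD8+ T cells purified from mouse spleens were stimulated through CD3 and CD28 in medium with interleukin-2, and were harvested on day 6. The DMSO group, 4 libraries, received the solvent from day 3. The DADA group, 4 libraries, received 40 µM DADA in the same solvent over the same days, so both groups shared the stimulation, the cytokine and the solvent. The labels of these libraries name neither the strain nor the age of the mice and do not tie a library to an animal. The design text calls the 4 libraries of a group biological replicates, and the p-values below measure the spread between these libraries.

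Cells that divide fast copy their genome under load, and stalled forks, abnormal bases and breaks are met by dedicated repair routes. Homologous recombination copies the broken stretch from the sister chromatid and therefore works in S and G2 phase, while non-homologous end joining rejoins ends at any stage and also closes the breaks of antigen receptor rearrangement in lymphocyte precursors. The Fanconi anaemia route unhooks cross-links between strands, mismatch repair corrects copying errors, base excision repair removes single altered bases, and the ATM and ATR kinases signal breaks and stalled forks to the checkpoint kinases. Many of these genes are transcribed mostly in cycling cells.

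Expression was measured by bulk RNA-seq as FPKM, the fragments of a gene relative to the length of its transcripts and to the depth of its library. Values were tested as log2(FPKM + 1) with limma over 10666 genes, with Benjamini-Hochberg adjustment over all of them, and a gene was called higher or lower at an adjusted p under 0.05. Summed FPKM per library ran from 450473 to 456939 with DMSO and from 438299 to 449480 with DADA. The table holds no read counts, and steps between its lowest values gave an estimated 13840000 to 16540000 mapped fragments with DMSO and 14760000 to 18760000 with DADA. Fragments behind each value were worked out from that estimate and the longest annotated transcript of the gene. The fewest for any of the 36 genes were 76, for *Rad51c*, and the most 6012, for *Topbp1*. Markers of the labelled cell type were present. *Cd3d*, *Cd3e*, *Cd3g*, *Cd8a*, *Cd8b1* and *Cd2* together stood at 837 to 857 FPKM with DMSO and 1064 to 1094 with DADA. *Cd4*, *Ms4a1*, *Lyz2*, *Ncr1* and *Hba-a1* stayed under 0.5 FPKM in all 8 libraries. Other markers of non-CD8 cells were above that level: *Zbtb7b* (14.8 to 16.7 FPKM), *Eomes* (9.96 to 14.1), *Cd68* (3.43 to 5.54) and *Cd79b* (2.18 to 3.47). In bulk libraries, fewer cells of a kind and less RNA of a gene per cell cannot be told apart.

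Most of the 36 genes were lower in DADA-treated CD8+ T cells. All 36 passed the filter on low values. Of these, 25 (69.4%) were called lower, where 35.3% of all genes tested were lower, and 4 (11.1%) were called higher, against 30.9% of all genes. For the other 7 no difference passed the threshold. In either direction, 66.2% of all genes tested were called, so a call by itself says little about a repair gene. The median log2 fold change of the 36 genes was -0.31, beside -0.02 over all genes tested, and it was -0.38 with a pseudocount of 0.1 or with quantile normalization. The 36 genes summed to between 594 and 603 FPKM with DMSO and to between 462 and 482 FPKM with DADA.

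For most of these genes the gap between the groups exceeded the replicate spread. For 25 genes all DADA libraries lay below all DMSO libraries, and for 4 genes all lay above. The 25 include *Msh3*, which was not called, and leave out *Rad51c*, which was. Over all genes tested, 32.2% were separated downwards and 28.4% upwards. The median coefficient of variation between replicates was 3.56% with DMSO and 4.36% with DADA. *Rad51c* was the most variable in both groups, at 31.3% and 22.4%.

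**Figure D1:**
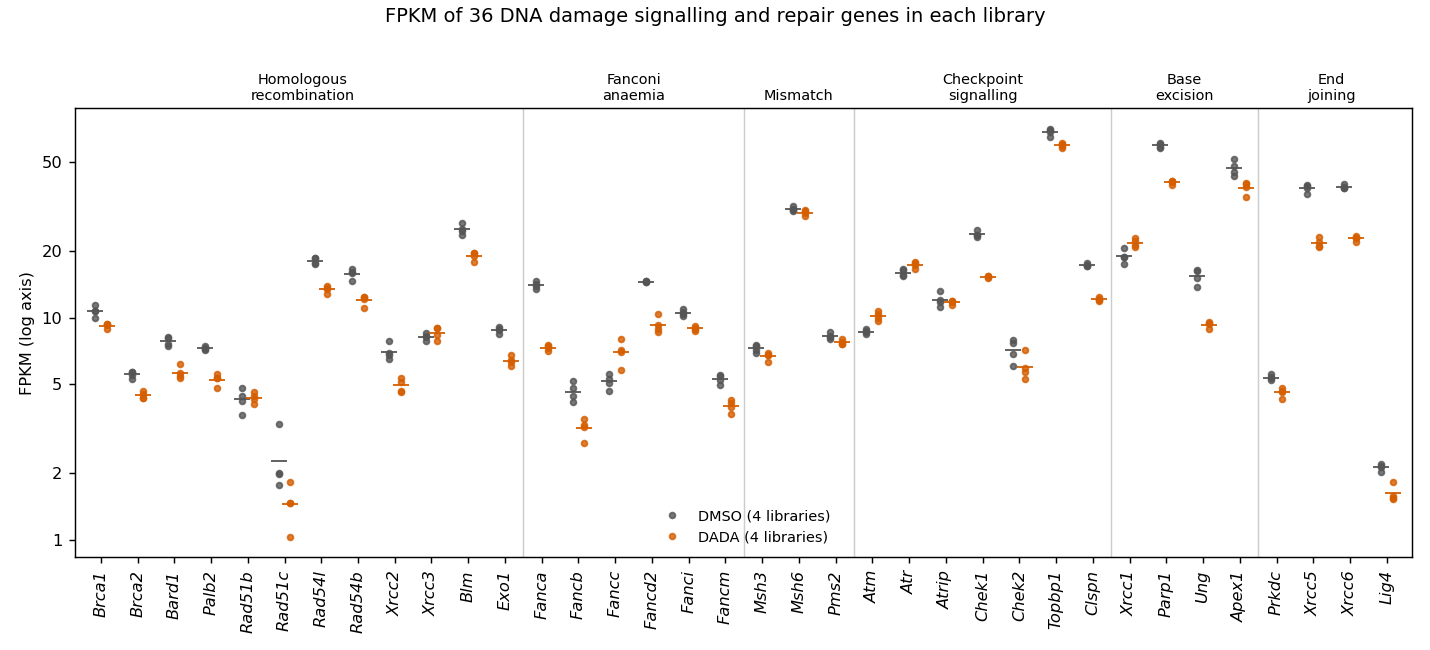
FPKM (log axis) of each of the 36 genes in each library, ordered by repair route. Grey points are the 4 DMSO libraries, orange points the 4 DADA libraries, and dashes the group means. *Fanca*, *Xrcc5*, *Xrcc6* and *Ung* show wide gaps between the groups, and the DADA points of *Fancc* and *Atm* lie above the DMSO points.

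End joining was the route with all of its members in this set called lower. Each of the 4 genes fell, where 35.3% of all genes tested were lower, with a median log2 fold change of -0.50. This did not extend to the 7 other end-joining genes counted below, of which 1 was called lower, with a median of 0.07. Together the 4 members summed to between 83.4 and 85.3 FPKM with DMSO and between 49.0 and 52.8 FPKM with DADA. *Xrcc5* (ENSMUSG00000026187) and *Xrcc6* (ENSMUSG00000022471) encode Ku80 and Ku70, the ring that clamps onto broken ends. *Xrcc5* was at 39.6, 36.1, 38.4 and 39.2 FPKM with DMSO and at 21.8, 21.0, 23.1 and 20.8 FPKM with DADA, 4 libraries each. Its mean fell by 43.4%, from 38.3 ± 1.59 to 21.7 ± 1.05 FPKM (SD, n = 4), with a log2 fold change of -0.79 (SE 0.0411, adjusted p = 8.48e-08 in limma). *Xrcc6* was at 38.4, 39.8, 38.2 and 38.5 FPKM with DMSO and at 22.7, 22.9, 23.3 and 21.9 FPKM with DADA, for a log2 fold change of -0.75 (SE 0.0278, adjusted p = 8.15e-09 in limma). The 2 Ku subunits thus stood at nearly the same FPKM as each other in each group, and neither showed overlap between the groups.

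*Prkdc*, whose product DNA-PKcs is the kinase that Ku recruits, was far lower than Ku in both groups, at 5.37 ± 0.151 FPKM (SD, n = 4) with DMSO and 4.60 ± 0.218 with DADA. Its log2 fold change was -0.19 (adjusted p = 0.00448 in limma). *Lig4*, the ligase that seals the ends, was the lowest gene of the route. It was at 2.01, 2.19, 2.13 and 2.15 FPKM with DMSO and at 1.58, 1.52, 1.82 and 1.55 FPKM with DADA. No DADA value reached a DMSO value, and the log2 fold change was -0.25 (adjusted p = 0.00285 in limma). With DMSO, Ku transcripts outnumbered those of the kinase and the ligase on the FPKM scale, and the largest falls in this route were also those of Ku.

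The Fanconi anaemia route held both the largest fall and the largest rise among the 36 genes. Of its 6 genes, 5 were called lower and 1 higher, against 35.3% and 30.9% of all genes tested. No gene overlapped between the groups, where 32.2% of all genes tested were separated downwards and 28.4% upwards. *Fanca* (ENSMUSG00000032815), a subunit of the core ubiquitin ligase, was at 14.6, 13.9, 14.1 and 13.4 FPKM with DMSO and at 7.42, 7.51, 7.07 and 7.26 FPKM with DADA. This was a fall of 47.8% and a log2 fold change of -0.85 (SE 0.0375, adjusted p = 2.74e-08 in limma). *Fancd2* (ENSMUSG00000034023), which the core complex ubiquitinates together with its partner FANCI, was at 14.6, 14.4, 14.6 and 14.4 FPKM with DMSO and at 9.30, 8.57, 10.4 and 8.88 FPKM with DADA. The 4 DMSO libraries were the most alike of the 36 genes, with a coefficient of variation of 1.0%, and the log2 fold change was -0.59 (SE 0.0524, adjusted p = 4.4e-06 in limma).

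*Fanci* went from 10.5 ± 0.284 to 8.94 ± 0.166 FPKM (SD, n = 4), for a log2 fold change of -0.21 (adjusted p = 0.000374 in limma). *Fancb*, another core subunit, was between 4.16 and 5.16 FPKM with DMSO and between 2.74 and 3.50 with DADA, for a log2 fold change of -0.43 (adjusted p = 0.000487 in limma). *Fancm*, the translocase that brings the core complex to DNA, fell by 24.4%, with a log2 fold change of -0.33 (adjusted p = 0.000286 in limma). *Fancc* (ENSMUSG00000021461), also a core subunit, went the other way. It was at 4.68, 5.31, 5.10 and 5.56 FPKM with DMSO and at 7.14, 5.82, 7.03 and 8.01 FPKM with DADA, all above the DMSO libraries. Its log2 fold change was 0.37 (SE 0.0817, adjusted p = 0.00248 in limma). Core subunits of one complex therefore differed in direction. *Fancc* shares 185 exon bases with *Aopep* on the opposite strand, whose log2 fold change was 0.61 (adjusted p = 2.54e-06 in limma). The use of strand in counting is not given in the sources used here, and the part of *Aopep* in the rise of *Fancc* was not tested.

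Homologous recombination had 10 of 12 genes lower and none higher, against 35.3% and 30.9% of all genes tested. Its median log2 fold change was -0.39. No gene of this route had an unadjusted p under 0.05 in the upward direction in limma. *Blm* (ENSMUSG00000030528), the Bloom helicase, was the highest of the 12, at 23.6, 24.4, 25.1 and 26.7 FPKM with DMSO and at 18.9, 17.8, 19.5 and 19.5 FPKM with DADA. Its groups did not overlap, and its log2 fold change was -0.38 (SE 0.0438, adjusted p = 3.05e-05 in limma). *Exo1*, the nuclease that resects ends and also acts in mismatch repair, fell by 27.4%, with a log2 fold change of -0.41 (adjusted p = 1.47e-05 in limma).

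Both BRCA genes and the genes of their partners were lower. *Brca1*, whose product starts resection with BARD1, fell by 13.9%, from 10.7 ± 0.579 to 9.21 ± 0.239 FPKM (SD, n = 4), with a log2 fold change of -0.20 (adjusted p = 0.00252 in limma). *Bard1* fell by 27.6%, at 8.05, 7.57, 8.18 and 7.43 FPKM with DMSO and 5.62, 5.35, 6.19 and 5.46 FPKM with DADA, for a log2 fold change of -0.41 (adjusted p = 6.33e-05 in limma). *Brca2*, which prepares resected single strands for strand exchange, fell by 19.4%, with a log2 fold change of -0.26 (adjusted p = 0.00044 in limma). *Palb2*, which bridges BRCA1 and BRCA2, fell by 27.6%, and its 4 DADA libraries, between 4.80 and 5.59 FPKM, lay below its DMSO libraries, between 7.12 and 7.43 FPKM. Each of these 4 genes was separated between the groups.

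The translocases *Rad54l* and *Rad54b*, which act in the pairing of the broken end with its template, were lower by like amounts. *Rad54l* went from between 17.4 and 18.6 to between 12.8 and 13.8 FPKM (log2 fold change -0.40, adjusted p = 5.67e-06 in limma) and *Rad54b* from 15.7 ± 0.811 to 12.0 ± 0.668 FPKM (SD, n = 4, log2 fold change -0.37, adjusted p = 8.88e-05 in limma). *Rad54b* shares 2068 exon bases on the same strand with *Fsbp*, so reads of the shared exons could belong to either gene. *Fsbp* was between 0.892 and 1.11 FPKM with DMSO and between 0.512 and 0.682 FPKM with DADA, lower without overlap like *Rad54b*, and the part of those reads in the fall of *Rad54b* was not tested. The genes of the paralog complexes that assist strand exchange gave mixed calls, with *Xrcc2* and *Rad51c* lower and *Rad51b* and *Xrcc3* without a call. *Xrcc2* did not overlap between the groups, at 6.53 to 7.81 FPKM with DMSO and 4.64 to 5.37 FPKM with DADA, for a log2 fold change of -0.43 (adjusted p = 0.000161 in limma).

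*Rad51b* and *Xrcc3* overlapped between the groups and did not pass the threshold. *Rad51b* was at 4.28 ± 0.488 FPKM with DMSO and 4.36 ± 0.232 with DADA (SD, n = 4), and the 95% interval of its log2 fold change ran from -0.13 to 0.18 (adjusted p = 0.765 in limma). *Xrcc3* was at 8.19 ± 0.291 and 8.53 ± 0.547 FPKM, with an interval from -0.06 to 0.16 (adjusted p = 0.375 in limma). *Rad51c* was called lower but rested on few fragments and on single libraries. It was at 1.77, 1.99, 3.32 and 1.98 FPKM with DMSO and at 1.82, 1.46, 1.46 and 1.03 FPKM with DADA, so that the groups overlapped. Its log2 fold change was -0.41 (SE 0.145, adjusted p = 0.0308 in limma). Without DMSO replicate 3 it was -0.26 (adjusted p = 0.0541), and the call was also lost without DADA replicate 2, 3 or 4 (adjusted p = 0.0553, 0.0542 and 0.0838) and without the filter on low values (adjusted p = 0.0607).

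**Figure D2:**
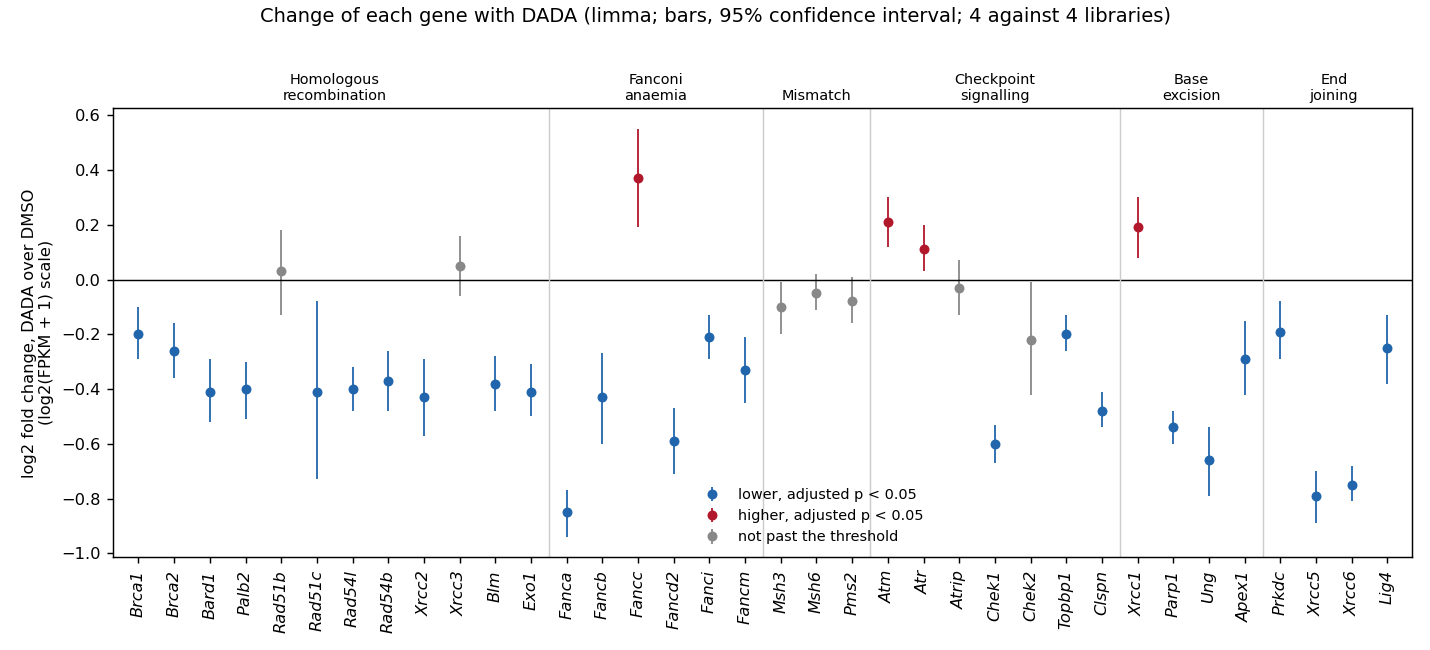
log2 fold change of each gene, DADA over DMSO, on the log2(FPKM + 1) scale, ordered by repair route. Points are limma estimates from 4 against 4 libraries and bars are 95% confidence intervals. The 25 genes called lower are blue, the 4 called higher red and the 7 without a call grey, with *Fanca* lowest at -0.85 and *Fancc* highest at 0.37.

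Checkpoint genes were called in both directions. Of 7 genes, 3 were called lower (42.9%) and 2 higher (28.6%), shares near the 35.3% and 30.9% of all genes tested, with a median log2 fold change of -0.20. The kinases at the top were slightly higher. *Atm* (ENSMUSG00000034218), the kinase that responds to double-strand breaks, was at 8.59, 8.46, 8.90 and 8.66 FPKM with DMSO and at 9.98, 9.64, 10.7 and 10.4 FPKM with DADA. The groups did not overlap, and the log2 fold change was 0.21 (SE 0.0395, adjusted p = 0.000966 in limma). *Atr*, the kinase that responds to stalled forks, was at 15.3, 16.5, 15.5 and 16.4 FPKM with DMSO and at 17.2, 16.6, 17.6 and 17.8 FPKM with DADA, for a log2 fold change of 0.11 (SE 0.0371, adjusted p = 0.0209 in limma). The gap between the highest DMSO and the lowest DADA library was small. The call of *Atr* was lost without DMSO replicate 1 (adjusted p = 0.0556), DMSO replicate 3 (0.0563), DADA replicate 3 (0.0512) or DADA replicate 4 (0.0588), each leaving 1 checkpoint gene called higher.

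*Atrip*, the partner that carries ATR to coated single strands, did not pass the threshold, at 12.0 ± 0.825 FPKM with DMSO and 11.7 ± 0.247 with DADA (SD, n = 4), and the 95% interval of its log2 fold change ran from -0.13 to 0.07 (adjusted p = 0.594 in limma). *Atrip* shares 1147 exon bases on the same strand with *Trex1*, which was higher with DADA (log2 fold change 0.49, adjusted p = 0.0343 in limma). The part of *Trex1* reads in the level of *Atrip* was not tested. In DMSO replicate 4, *Atrip* was highest, at 13.1 FPKM, and *Trex1* was lowest, at 8.05 FPKM against 12.4 to 21.2 in the other libraries, so the share of reads given to each is uncertain. Without that library the log2 fold change of *Atrip* was 0.01.

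*Topbp1*, *Clspn* and *Chek1*, whose products act with or below ATR, were lower. *Topbp1*, the ATR activator, was the highest of the 36 genes in both groups, at 68.4 ± 2.36 FPKM with DMSO and 59.5 ± 1.28 with DADA (SD, n = 4), for a log2 fold change of -0.20 (adjusted p = 0.000196 in limma). *Clspn* (ENSMUSG00000042489), the claspin adaptor that hands CHK1 to ATR, was at 17.0, 17.3, 17.6 and 17.1 FPKM with DMSO and at 12.0, 11.9, 12.4 and 12.1 FPKM with DADA, for a log2 fold change of -0.48 (SE 0.0292, adjusted p = 2.8e-07 in limma). *Chek1* (ENSMUSG00000032113), which encodes CHK1 itself, was at 23.1, 23.5, 24.8 and 23.4 FPKM with DMSO and at 15.1, 15.3, 15.2 and 15.4 FPKM with DADA. Both genes were separated by far more than their replicate spread, and *Chek1* had the largest change of the route, with a log2 fold change of -0.60 (SE 0.03, adjusted p = 6.66e-08 in limma).

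*Chek2*, which encodes the kinase downstream of ATM, was noisier. It was at 6.04, 7.66, 7.94 and 6.88 FPKM with DMSO and at 5.70, 5.90, 7.11 and 5.31 FPKM with DADA, so that the groups overlapped. Its log2 fold change was -0.22, with a 95% interval from -0.42 to -0.01 (adjusted p = 0.064 in limma), and it passed the threshold without DMSO replicate 1 (-0.28) or without DADA replicate 3 (-0.29). It also passed with quantile normalization (-0.27) and with the replicate number as a block (-0.22, adjusted p = 0.0165).

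Base excision repair had 3 of 4 genes lower and 1 higher, against 35.3% and 30.9% of all genes tested. With so few genes, the share called higher was near that of all genes tested. The median log2 fold change of the route was -0.41. *Ung* (ENSMUSG00000029591), the glycosylase that removes uracil from DNA, was at 16.4, 13.7, 16.2 and 15.1 FPKM with DMSO and at 8.85, 9.34, 9.45 and 9.53 FPKM with DADA. This was a fall of 39.5% and a log2 fold change of -0.66 (SE 0.055, adjusted p = 2.69e-06 in limma). *Parp1* (ENSMUSG00000026496), the sensor that marks strand breaks with ADP-ribose chains, was at 61.0, 58.1, 60.3 and 58.4 FPKM with DMSO and at 41.2, 40.6, 41.0 and 39.4 FPKM with DADA, for a log2 fold change of -0.54 (SE 0.0258, adjusted p = 4.84e-08 in limma). Neither gene overlapped between the groups.

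*Apex1*, the endonuclease that cuts the site left by a glycosylase, was at 51.7, 47.9, 43.2 and 45.2 FPKM with DMSO and at 38.5, 39.9, 40.2 and 34.7 FPKM with DADA, for a log2 fold change of -0.29 (adjusted p = 0.00195 in limma). *Xrcc1*, the scaffold that gathers the enzymes of the last steps, was higher. It was at 18.7, 20.5, 18.8 and 17.4 FPKM with DMSO and at 22.1, 21.2, 20.7 and 22.8 FPKM with DADA, and the highest DMSO library was just below the lowest DADA library. The log2 fold change was 0.19 (SE 0.0493, adjusted p = 0.0058 in limma).

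Mismatch repair was the one route of the 6 with no call. The count of 0 in limma goes with 1 gene at an unadjusted p under 0.05, *Msh3*, which recognises longer loops. *Msh3* was at 6.94, 7.16, 7.50 and 7.44 FPKM with DMSO and at 6.81, 6.75, 6.33 and 6.90 FPKM with DADA, with no overlap and a log2 fold change of -0.10 (95% interval -0.20 to -0.01, adjusted p = 0.0556 in limma). It passed the threshold without DMSO replicate 1 (-0.12), without the mean-variance trend (-0.10) and with quantile normalization (-0.16). *Msh6*, which recognises single mismatches, was at 30.7 ± 0.674 FPKM with DMSO and 29.7 ± 0.798 with DADA (SD, n = 4), with a 95% interval from -0.11 to 0.02 (adjusted p = 0.158 in limma). *Pms2*, the nuclease subunit that nicks the new strand, was at 8.24 ± 0.278 and 7.75 ± 0.195 FPKM, with an interval from -0.16 to 0.01 (adjusted p = 0.0928 in limma), and was called lower with quantile normalization only (-0.13).

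Of the 36 genes, 13 share annotated exon bases with another measured gene, which matters where reads were counted without strand. *Fanca* shares 920 bases on the opposite strand with *Zfp276*, which was at 4.29 FPKM on average with a log2 fold change of 0.07 (adjusted p = 0.31 in limma). *Xrcc6* shares 344 opposite bases with *Desi1*, at 33.4 FPKM with a log2 fold change of -0.01 (adjusted p = 0.795 in limma). The part of *Zfp276* and *Desi1* reads in the levels of *Fanca* and *Xrcc6* was not tested. *Apex1*, *Fanci* and *Rad54l* share opposite bases with *Pip4p1*, *Polg* and *Lrrc41*. The log2 fold changes of these neighbours were 0.05, -0.01 and -0.13 (adjusted p = 0.334, 0.872 and 0.00231 in limma). *Lrrc41*, at 21.5 FPKM on average, shares 1184 bases with *Rad54l* and was lower like it. The part of *Lrrc41* reads in the fall of *Rad54l* was not tested. *Xrcc3* shares only 12 bases with *Klc1*, which was higher (0.34, adjusted p = 1.17e-05 in limma). *Msh6* shares 34 bases with *Fbxo11*, which was lower (-0.15, adjusted p = 0.000579 in limma). The overlapping neighbours of *Fancd2* and *Pms2* stayed under 1 FPKM.

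To see whether partners kept their proportions, 8 ratios of FPKM within a library were compared between the groups. The printed ratios of FPKM do not depend on the scaling of a library, whereas those tested with a pseudocount do. Each was tested on the log2 ratio of (FPKM + 1) by exact permutation of the 8 libraries (two-sided, 70 assignments), whose smallest possible p is 0.0286, and adjusted over the 8 ratios. The ratio of *Fancd2* to *Fanci* was 1.43, 1.38, 1.35 and 1.36 with DMSO and 1.02, 0.980, 1.17 and 0.983 with DADA. The ratio of *Chek1* to *Chek2* was 3.82, 3.06, 3.12 and 3.41 with DMSO and 2.66, 2.60, 2.14 and 2.90 with DADA. Both ratios were lower with DADA, with no overlap (exact permutation test, p = 0.0286, adjusted p = 0.0571).

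The ratio of *Atr* to *Atrip* was between 1.25 and 1.37 with DMSO and between 1.46 and 1.49 with DADA. The ratio of *Atm* to *Atr* was between 0.511 and 0.576 with DMSO and between 0.579 and 0.606 with DADA. These 2 ratios were higher in every DADA library (exact permutation test, p = 0.0286, adjusted p = 0.0571), the second by a narrow margin. *Trex1*, which shares exon bases with *Atrip* on the same strand, was higher with DADA, and its part in the ratio of *Atr* to *Atrip* was not tested. The ratios of *Brca1* to *Bard1* and of *Brca2* to *Palb2* had higher means with DADA, 1.63 against 1.37 and 0.853 against 0.765, with overlap between the groups (exact permutation test, p = 0.0571, adjusted p = 0.0762). No ratio was under an adjusted p of 0.05, which this design could have reached only if more of the 8 ratios had separated. The ratio of Ku70 to Ku80 transcripts, *Xrcc6* to *Xrcc5*, was 1.01 ± 0.0617 with DMSO and 1.05 ± 0.0345 with DADA (SD, n = 4; exact permutation test, p = 0.371, adjusted p = 0.371), and that of *Msh6* to *Msh3* was 4.24 ± 0.115 and 4.44 ± 0.253 (exact permutation test, p = 0.286, adjusted p = 0.327).

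**Figure D3:**
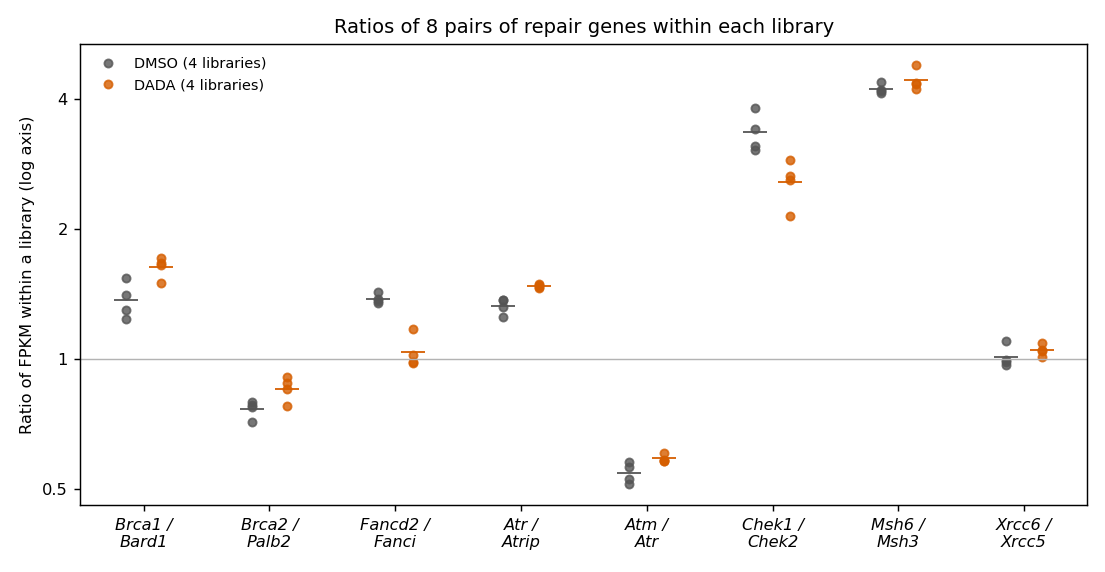
Ratio of the FPKM of 2 genes within each library (log axis) for 8 pairs. Grey points are the 4 DMSO libraries, orange points the 4 DADA libraries, and dashes the means. *Fancd2* over *Fanci* went from a mean of 1.38 to 1.04 and *Chek1* over *Chek2* from 3.35 to 2.57, while *Xrcc6* over *Xrcc5* stayed near 1.

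The other genes of the same routes were counted from lists of known members. These lists and those below were chosen with earlier results of these data known. Of 97 tested, 61 were called lower (62.9%) and 4 higher (4.12%), with a median log2 fold change of -0.26. Over all genes tested, 35.3% were lower and 30.9% higher, and these shares apply beside every list below. The homologous recombination list had 21 of 35 lower and 3 higher. *Recql4*, a helicase of replication and repair, fell most, from 22.0 ± 0.665 to 9.56 ± 0.637 FPKM (SD, n = 4; log2 fold change -1.13, adjusted p = 1.71e-08 in limma). *Rad52*, an annealing factor, and *Mus81*, a nuclease that cuts branched DNA, were higher, with log2 fold changes of 0.57 and 0.32 (adjusted p = 2.58e-06 and 0.00068 in limma).

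The Fanconi anaemia list had 6 of 11 lower and 1 higher. *Usp1*, which removes ubiquitin from FANCD2, was lower (log2 fold change -0.58, adjusted p = 6.3e-07 in limma), as was *Faap24* (-0.33, adjusted p = 4.43e-05), while *Faap20*, a small partner of FANCA, was higher (0.30, adjusted p = 0.000219). In mismatch repair 3 of the 4 other genes were called lower, among them *Pms1* (-0.46, adjusted p = 6.29e-05).

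The other checkpoint genes had 16 of 19 lower and none higher, with no upward gene at an unadjusted p under 0.05 in limma. *H2afx*, the histone variant phosphorylated at breaks, was at 39.2, 39.4, 39.7 and 32.2 FPKM with DMSO and at 22.2, 23.5, 21.7 and 21.8 FPKM with DADA (log2 fold change -0.73, adjusted p = 4.1e-06 in limma), and *Cdc25c*, the phosphatase that CHK1 restrains, fell by a log2 fold change of -0.63 (adjusted p = 1.02e-06 in limma). In base excision 14 of 21 were lower and none higher, with no upward gene at an unadjusted p under 0.05, led by *Tdp1* (-0.57, adjusted p = 1.07e-06 in limma) and the oxidised-guanine glycosylase gene *Ogg1* (-0.49, adjusted p = 0.000151 in limma). Of the other end-joining genes, 1 of 7 was called lower, *Polq* of the alternative end-joining route (-0.48, adjusted p = 2.4e-05 in limma), none was higher, with none at an unadjusted p under 0.05, and the median was 0.07.

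Nucleotide excision repair had 14 of 19 genes lower and 1 higher, or 2 higher without DMSO replicate 4, with *Ercc8* and *Ddb2* at log2 fold changes of -0.75 and -0.44 (adjusted p = 1.74e-05 and 2.53e-05 in limma) and the damage verifier *Xpa* at 0.49 (adjusted p = 6.03e-05 in limma). Translesion synthesis had 4 of 12 lower (33.3%) and 3 higher, about the shares of all genes tested (35.3% and 30.9%), with the bypass polymerase genes *Polh* and *Poli* lower (-0.38 and -0.30, adjusted p = 3.4e-06 and 0.000611 in limma) and *Primpol* and *Ube2b* higher (0.34 and 0.32, adjusted p = 0.000304 and 8.12e-05 in limma). Transcripts that p53 activates were called in both directions, 13 of 21 lower (61.9%) and 7 higher (33.3%). The share called higher was near the 30.9% of all genes tested. *Cdkn1a*, the p21 inhibitor of cyclin-dependent kinases, rose from between 101 and 104 to between 161 and 177 FPKM (log2 fold change 0.73, adjusted p = 2.46e-08 in limma), and *Pmaip1*, a pro-apoptotic gene, reached a log2 fold change of 0.89 (adjusted p = 1.34e-07 in limma). *Zmat3* and *Phlda3* were lower (-0.63 and -0.57, adjusted p = 1.46e-07 and 6.47e-06 in limma).

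**Figure D4:**
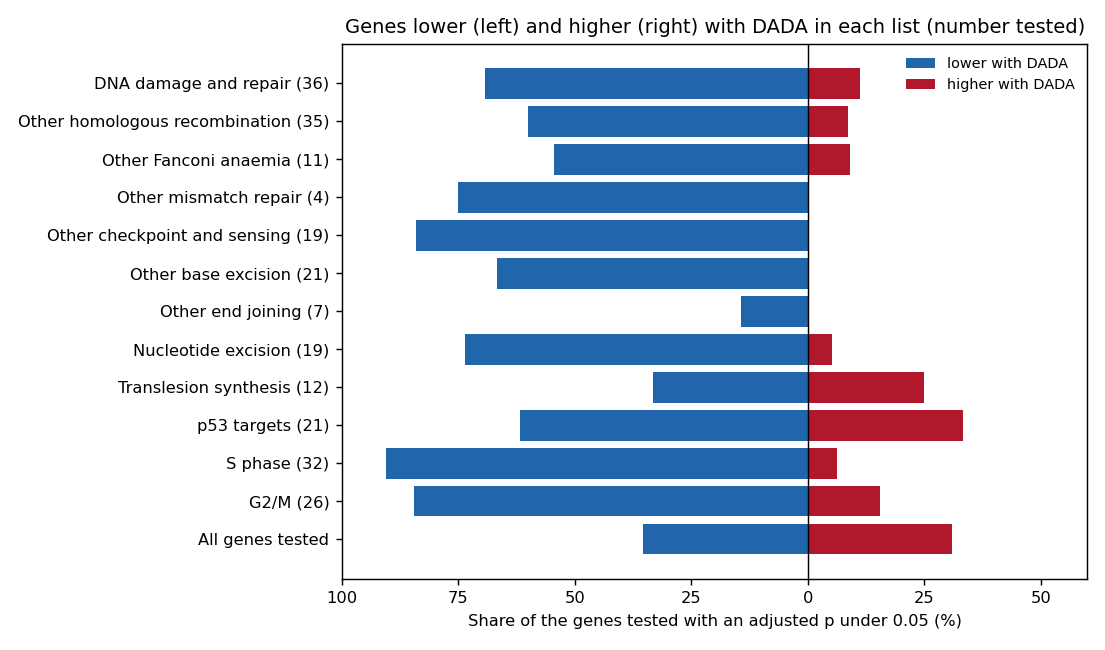
Share of the genes tested in each list (number in brackets) that were called lower (blue, to the left) or higher (red, to the right) with DADA, as a percentage from 0 at the centre line. The bar of all genes tested stands at 35.3% lower and 30.9% higher, that of the 36 genes, labelled DNA damage and repair, at 69.4% and 11.1%, and that of S phase genes at 90.6% and 6.25%.

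Most transcripts of cycling cells moved in the same direction as the repair genes. Of 32 S phase genes, 29 were called lower (90.6%) and 2 higher (6.25%), against 35.3% and 30.9% of all genes tested. Their summed level went from between 1711 and 1730 FPKM with DMSO to between 1348 and 1364 with DADA. Of 26 genes of G2 phase and mitosis, 22 were lower (84.6%) and 4 higher (15.4%), with sums of 1254 to 1264 and 950 to 974 FPKM. *Tyms*, which makes thymidylate, and *Mcm2* of the replicative helicase had log2 fold changes of -0.97 and -0.61 (adjusted p = 5.83e-08 and 3.54e-09 in limma), and *Cdc20* and *Kif20a* of mitosis both had -0.79 (adjusted p = 4.27e-08 and 1.73e-08 in limma). Not every such gene fell: *Cdc6*, the licensing factor, and *Kif11* and *Prc1* of the spindle were higher, at 0.47, 0.71 and 0.46 (adjusted p = 8.08e-07, 2.5e-08 and 2.05e-06 in limma). *E2f1* was also called higher (0.19, adjusted p = 0.0321 in limma) but overlapped between the groups, and the count of S phase genes called higher was 1 without DMSO replicate 3 or 4 or without DADA replicate 1, 2 or 4. The part of a change in cell cycle in the levels of the repair genes was not tested.

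Signs of other cell types were few. The 6 CD8+ T cell markers were all called higher with DADA, with a median log2 fold change of 0.29. The 4 CD4 T cell markers summed to between 16.3 and 17.4 FPKM with DMSO and 15.3 to 15.8 with DADA, nearly all of it *Zbtb7b*, while *Cd4* stayed at or under 0.411 FPKM. The 6 B cell markers summed to between 2.59 and 3.56 and between 2.36 and 3.09 FPKM, most of it *Cd79b*, with *Pax5* at 0 in all 8 libraries. The 8 myeloid markers summed to between 3.52 and 3.99 and between 5.24 and 5.93 FPKM, most of it *Cd68*, with *Csf1r*, *Adgre1* and *C1qa* at 0. The 4 NK markers summed to between 13.3 and 14.2 and between 10.1 and 11.2 FPKM, nearly all of it *Eomes*, which T cells also use, and the 6 erythroid markers never passed 0.426 FPKM in sum.

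Promoter sequences were examined because repair genes of cycling cells often carry sites for E2F factors, which drive genes of the G1 to S transition. RefSeq promoters (build GRCm38.p6, 250 bases before to 50 bases after each start) were given for 31 of the 36 genes, with 35 starts, and *Exo1*, *Fancd2*, *Prkdc*, *Rad54b* and *Xrcc2* were not among them. An E2F word (TTTCCCGC, TTTGGCGC, TTTCGCGC or TTTGCCGC, on either strand) was in 10 of the 35 promoters (28.6%) and in 2.26% of all 32851 promoters. The 9 genes with a word were *Bard1*, *Brca2*, *Clspn*, *Rad51c*, *Topbp1* and *Xrcc6*, called lower, and *Chek2*, *Msh3* and *Msh6*, without a call. Of the genes with a promoter, 6 of 20 called lower, 0 of 4 called higher and 3 of 7 without a call had one. The stretches around these words are printed below 5′ to 3′ on the strand of the gene, with the words in capitals, to show how they differ in orientation and place.
Bard1 (chr1:71103148-71103207, minus strand): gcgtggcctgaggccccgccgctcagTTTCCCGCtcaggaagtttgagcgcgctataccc
Brca2 (chr5:150522427-150522486, plus strand): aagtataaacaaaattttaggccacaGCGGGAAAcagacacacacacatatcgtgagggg
Chek2 (chr5:110839805-110839864, plus strand): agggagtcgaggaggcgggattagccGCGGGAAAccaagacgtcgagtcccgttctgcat
Clspn (chr4:126556975-126557009, plus strand): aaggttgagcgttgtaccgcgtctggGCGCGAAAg
Msh3 (chr13:92355168-92355231, minus strand): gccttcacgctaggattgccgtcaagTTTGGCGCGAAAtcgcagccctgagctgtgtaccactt
Msh6 (chr17:87975039-87975079, plus strand): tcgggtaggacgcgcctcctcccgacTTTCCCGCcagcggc
Rad51c (chr11:87404477-87404521, minus strand): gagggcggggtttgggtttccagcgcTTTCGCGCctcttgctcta
Rad51c (chr11:87404926-87404985, minus strand): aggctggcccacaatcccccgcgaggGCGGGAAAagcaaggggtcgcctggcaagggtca
Topbp1 (chr9:103305172-103305231, plus strand): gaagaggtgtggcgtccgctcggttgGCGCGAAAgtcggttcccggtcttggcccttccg
Xrcc6 (chr15:82016297-82016356, plus strand): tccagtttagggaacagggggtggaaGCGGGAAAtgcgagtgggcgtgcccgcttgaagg
Positions are given from the RefSeq start. The word of *Xrcc6* began 46 bases upstream and that of *Topbp1* 129 bases upstream, and those of *Brca2* (168 bases) and *Bard1* (209 bases) lay farther. In *Clspn* and *Msh6* the word followed the start, from base 22 and base 16, and *Rad51c* had 1 word at each of its 2 starts. In *Msh3* a pair of overlapping words, one on each strand, began 202 bases upstream. These 4 words are only some of those that E2F factors can bind, and a match is not evidence of binding.

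Of the other motifs searched, the CHR words of late cell cycle genes (TTTGAA or TTCGAA, either strand) were in 4 of the 35 promoters (11.4%) and in 19.2% of all promoters. CCAAT (either strand) was in 22 of the 35 (62.9%) and in 37.4% of all promoters, including those of *Fanca*, *Xrcc5* and *Xrcc6* with the largest falls and those of *Fancc*, *Atm* and *Xrcc1*, which were higher. Genes with CCAAT were thus called in both directions.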

How the data were processed

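The authors deposited 1 FPKM value per gene for each of 8 bulk RNA-seq libraries, and those FPKM values were used as they are. The submitters' processing notes name CASAVA 1.8.2, FastQC 0.11.9, HISAT2 2.0.5, StringTie 1.3.3, Picard 1.41 and SAMtools 0.1.18 with the builds GRCm39 and GRCh38, and give no roles. Which of these builds was used for counting, and whether strand was used, is not given in the sources used here. Libraries were put in groups by their titles. Columns left unused: 0.

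Genes with at least 1 FPKM in at least 4 libraries (10666 genes) were analysed as log2(FPKM + 1), a scale that understates the change of low genes, with limma 3.58.1 in R 4.3.3 (lmFit with 1 treatment term, eBayes with a mean-variance trend, Benjamini-Hochberg adjustment over all genes). Ratios were tested in Python 3.11.15 with scipy 1.17.1. The limma fit was tested on simulated data. The members and gene lists were chosen with earlier results of these data known. Every one of the 36 genes is named, and of other lists at most the 2 called genes with the largest change in each direction. Marker genes and genes that share exons with a member are named beside the results they touch. Some genes that these rules select are not reported here. Depth was estimated from 3858 genes with a single transcript in GENCODE M21 by the step between low values. Between 43.99% and 51.6% of low values were within 0.1 of a whole fragment. Chance gives 20% at a depth that was not chosen for its fit, as these were. No count test was run, and intervals are those of limma. Shared exon bases also come from GENCODE M21. Alternatives were a pseudocount of 0.1, no filter, a mean of at least 5 FPKM, TPM rescaling, quantile normalization, scaling by median ratios, no mean-variance trend, a replicate block and each library left out; ratios were also computed with no pseudocount. Figures were drawn with matplotlib 3.10.9.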

Additional observations from a re-analysis of the deposited data

Results flagged for a closer look

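Among 88 groups of 4 libraries, 2 held a library whose distance from the others was past Dixon's 95% critical value, and chance flags about 1 in 20 such groups. For *Rad51c* with DMSO, replicate 3 was at 3.32 FPKM and the others between 1.77 and 1.99, a gap of 0.858 of the range. For the log2 ratio of *Atm* to *Atr* with DADA, replicate 3 was at -0.674 and the others between -0.733 and -0.725, a gap of 0.857 of the range.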

How the results depend on the processing

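Of 570 values of single genes under 16 alternatives, 549 kept direction and side of the threshold, 9 lost the call, 8 gained it and 4 reversed, and 28 of the 36 genes were the same throughout. The reversals were near 0: *Rad51b* at -0.09 and *Xrcc3* at -0.001 with quantile normalization, *Rad51b* at -0.03 without DMSO replicate 2 and *Atrip* at 0.01 without DMSO replicate 4. With libraries left out, *Rad51b* ran from -0.03 to 0.07 and *Atrip* from -0.06 to 0.01. With libraries left out, the 36 genes gave 24 to 27 lower, 3 to 4 higher and a median from -0.33 to -0.29, checkpoint genes gave 1 to 2 higher and mismatch genes 0 to 1 lower. Mismatch genes called lower were 2 with quantile normalization and 1 without the trend. A mean of at least 5 FPKM left fewer genes to test, with 3 Fanconi and 2 end-joining genes lower and an end-joining median of -0.77. With a pseudocount of 0.1 the medians were -0.38 for the 36 genes, -0.46 for Fanconi, -0.57 for end joining, -0.29 for other recombination and -0.32 for other base excision genes. With quantile normalization they were -0.38, -0.48 and -0.56 for the first 3 of these, -0.13 for mismatch, -0.14 for other Fanconi, 0.02 for other end-joining and -0.17 for nucleotide excision genes. With TPM rescaling, medians were -0.09 for other Fanconi, 0.11 for other end-joining, -0.16 for nucleotide excision and -0.29 for S phase genes, and 1 other end-joining and 2 nucleotide excision genes were higher, the latter also 2 without the trend. S phase genes called higher were 1 with no filter and 1 with quantile normalization. With libraries left out, medians ran from -0.29 to -0.23 for other recombination, -0.14 to -0.08 for other Fanconi, -0.38 to -0.34 for other checkpoint, -0.31 to -0.25 for other base excision, 0.04 to 0.08 for other end-joining and -0.32 to -0.30 for S phase genes, and 1 to 2 nucleotide excision and 1 to 2 S phase genes were higher. Except where fewer genes or libraries entered by construction, the cause was not tested. The ratios kept their directions, and with a library left out they are values with no test, since the smallest p is then 0.0571.

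The replicate numbers did not pair the libraries: the deviations of same-numbered libraries correlated at 0.0953, -0.12, -0.0877 and 0.0751, and none was closest to its own number. With the replicate block, 26 of the 36 genes were lower and 4 higher, and *Chek2* was the gene gained. FPKM values carry no counts, so the precision of low genes such as *Rad51c* and *Lig4* rests on the spread of 4 libraries.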
